A study of Mus musculus with 33 samples.

Results

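The comparison described here asks how completely an FSHB transgene returns the transcripts of mutant mouse ovaries to the wild-type state. It uses 14 of the 33 ovary libraries of the series. In experiment 1, 3 libraries were labelled WT (wild type) and 3 were labelled Fshb(-/-), the knockout (KO) of the gene for the hormone-specific beta subunit of follicle-stimulating hormone. In experiment 2, 4 libraries were labelled Fshb(-/-) and 4 were labelled Fshb(-/-) HFSHB, which names an FSHB transgene on the same mutant background and is called the rescue. The rescue libraries therefore carry the mutant allele too. Neither age, strain and estrous stage nor the promoter, copy number and founder line of the transgene are given in the labels, and whether each library is its own animal is not stated, so the tests measure only how far these libraries spread. For each gene the WT effect is WT minus KO in experiment 1, the rescue effect is rescue minus KO in experiment 2, and the difference of effects is the rescue effect minus the WT effect, all in log2 units from one edgeR fit. A gene is called where its p-value, adjusted by the Benjamini-Hochberg method over all genes tested, is under 0.05. Of the genes in the table, 18368 passed the filter on low counts and were tested. Total counts per library were 13.6 to 16.9 M (mega) in experiment 1 and 19.6 to 23.7 M in experiment 2. Levels are given as CPM, counts per M on normalized library sizes.

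Follicle-stimulating hormone (FSH) is a pituitary glycoprotein whose receptor sits on the granulosa cells of ovarian follicles. Its signal raises aromatase and inhibin and activin subunits and lets follicles grow past the early antral stage. Follicles that ovulate turn into corpora lutea, which make progesterone. Without FSH, follicles stop before that stage, so the ovary keeps many small follicles, few blood vessels and no corpora lutea. In whole ovaries, fewer cells of a type and less RNA per cell cannot be told apart.

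The targeted gene was read first, and in these 14 libraries it was higher where the label is Fshb(-/-) than where it is WT. Fshb (ENSMUSG00000027120, chr2:107056140-107059656, minus strand, GRCm38) had 0.0624, 0.0634 and 0 CPM in the libraries labelled WT. The KO libraries of experiment 1 had 4.23, 5.90 and 5.11 CPM. The KO libraries of experiment 2 had 8.48, 7.52, 7.26 and 5.62 CPM, and the rescue libraries had 10.1, 11.9, 18.0 and 21.3 CPM. The WT libraries were thus lowest, the rescue libraries were highest, and no pair of groups compared overlapped. The WT libraries held 2 Fshb counts in sum against 229 in the KO libraries of experiment 1, a ratio of 124 (95% exact interval 33.8 to 1030, counting error only). The libraries labelled Fshb(+/-) had 2.70, 3.94 and 7.0 CPM. Experiment 3, whose sample titles all hold WT, did not show the near-zero level throughout. Fshb had 7.01, 4.63, 14.8 and 5.3 CPM in stage DE, 0, 0, 4.15 and 2.5 CPM in PE, and 4.37, 10.9, 0 and 5.59 CPM in E. The libraries labelled KO (anestrus) had 7, 8.12, 7.74 and 8.4 CPM, and edgeR called no stage against them (adjusted p = 0.99, 0.15 and 0.74). Which part of Fshb is deleted is not given in the sources used here, and human FSHB reads were not analysed here. All directions below rest on the group labels.

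Most of what differed between WT and KO ovaries differed the same way between rescue and KO ovaries. The WT effect was called for 3552 genes (19.3% of those tested), 1692 higher (9.21%) and 1860 lower (10.1%) in WT. The rescue effect was called for 4467 genes (24.3%), 2128 higher (11.6%) and 2339 lower (12.7%). These shares of all genes tested are the background for the list counts below. Both effects were called for 2374 genes, and 2354 of these pointed the same way. The difference of effects was called for 39 genes (0.212%), 12 positive and 27 negative, while 1402 had an unadjusted p under 0.05. DESeq2 called 185 and limma voom 45. The edgeR count fell to between 21 and 25 when KO replicate 1 of experiment 1 (23), KO replicate 2 (25) or 4 (21) of experiment 2, or rescue replicate 1 (23) or 4 (25) was left out, and 15 of the 39 kept their call whichever of the 14 libraries was left out. How large the rescue effect looked beside the WT effect depended on which of the pair chose the genes. Among genes called in the WT effect the median size was 0.72 for the WT effect and 0.51 for the rescue effect. Among genes called in the rescue effect the order was the other way round, 0.58 and 0.72. The rescue effect had the sign of the WT effect in 96.6% of the genes called in WT minus KO and in 75.0% of all genes tested.

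**Figure D1:**
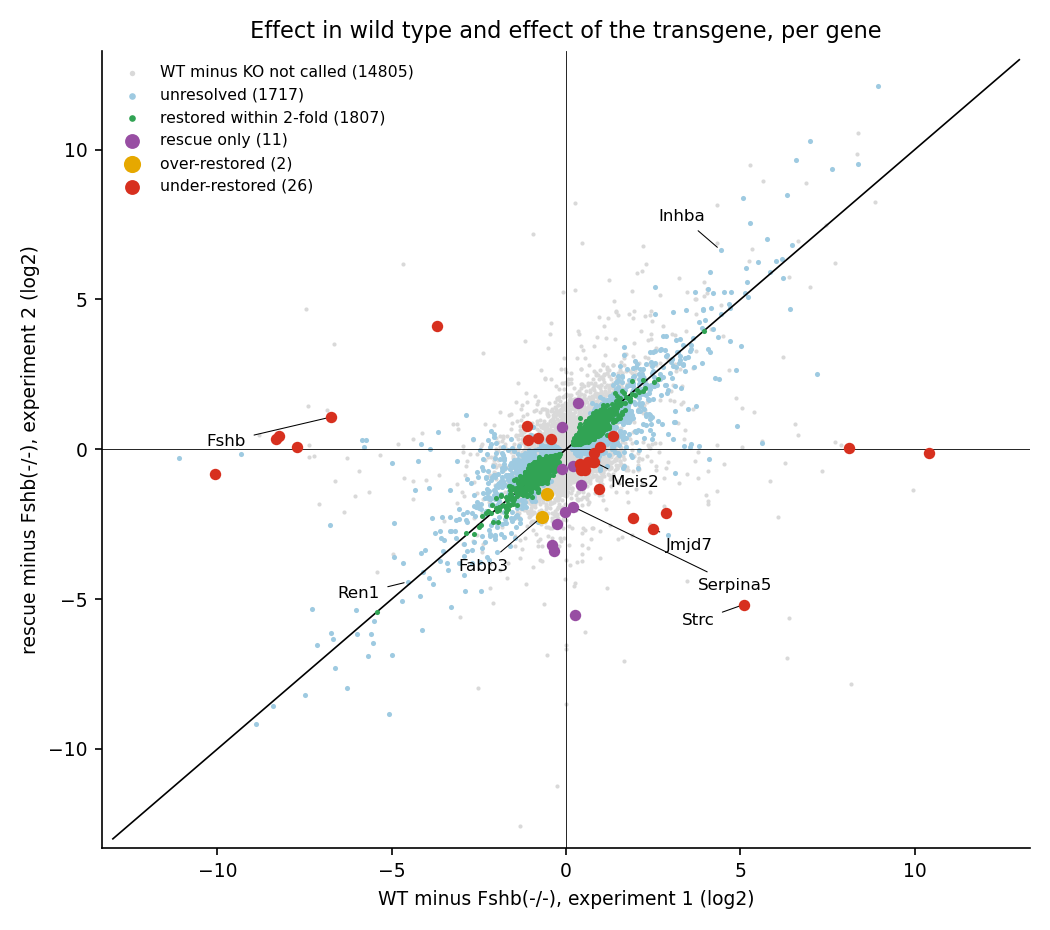
Each point is 1 of 18368 genes, with the WT effect (WT minus KO, experiment 1) on the x axis and the rescue effect (rescue minus KO, experiment 2) on the y axis, both in log2, and the diagonal marks equal effects. The 1807 genes restored within 2-fold (green) lie along the diagonal by construction, and the 26 under-restored genes (red) lie toward or beyond the x axis.

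The 3552 genes with a called WT effect were sorted by fixed rules. A gene was called restored within 2-fold where both effects were called in one direction, the difference of effects was not, and 2 one-sided tests placed that difference inside 1 log2 unit either way with an adjusted p under 0.05. This class held 1807 genes (9.84% of all tested and 50.9% of those with a WT effect), 756 higher and 1051 lower in WT. With the margin at 1.5-fold it held 973. Of the 1807 genes, 1487 had a WT effect under 2-fold. For these the margin is wider than the WT effect, so a rescue effect of 0 would also lie inside it. Their place in the class rests on the called rescue effect and does not measure how complete the return was. A gene was called under-restored where the difference of effects was called against the sign of the WT effect, which held for 26 genes (0.142% of those tested). Of these, 1 also had a called rescue effect in the WT direction, 10 had none, and 15 had one in the opposite direction. Over-restoration, a called excess over the WT effect in its own direction, held for 2 genes. The remaining 1717 genes were unresolved: no difference was called, and at least 1 of the conditions for restoration was not met. Of these, 544 had a rescue effect called in the WT direction, 1168 had none called and 5 had one called in the opposite direction. Of 1120 genes with a WT effect of at least 2-fold, 320 were restored within 2-fold and 785 were unresolved. A further 11 genes had no called WT effect but a called rescue effect and a called difference, and are named rescue-only genes.

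Most genes of the oocyte list were restored within 2-fold. Of its 35 genes, 26 were lower in WT, 32 were lower in the rescue, none was called higher in either effect (0 at an unadjusted p under 0.05 and 0 by DESeq2 and limma voom), and 25 were restored within 2-fold. The list median was -0.88 for the WT effect and -0.94 for the rescue effect, against 0.01 and -0.01 over all genes tested. The WT median was smaller in size than the margin, and for such genes the class does not measure how complete the return was. Zp3, a protein of the zona pellucida, had 44.4, 56.0 and 52.0 CPM in WT and 84.3, 120 and 118 CPM in the KO libraries of experiment 1. It had 78.4, 108, 72.4 and 80.6 CPM in the KO libraries and 42.4, 46.9, 42.2 and 30.6 CPM in the rescue libraries of experiment 2. Neither pair of groups overlapped, and the rescue libraries overlapped the WT libraries or lay below them. The difference of effects for Zp3 was 0.01 ± 0.24 (SE), with an adjusted p of 0.0014 for lying within 2-fold. Gdf9, the oocyte growth factor that acts on granulosa cells, had a difference of -0.06 ± 0.22 (equivalence adjusted p = 0.0010). Its WT effect of -0.80 was smaller in size than the margin, and its rescue effect was -0.86 ± 0.15. The oocyte gene with the smallest p for the difference was Kit, the receptor for KIT ligand, at 0.18 in WT and -1.3 in the rescue; its difference of -1.48 ± 0.40 was not called by edgeR (adjusted p = 0.26) and was by DESeq2 (adjusted p = 0.014).

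Most endothelial genes were higher in WT and in the rescue. Of 22 genes, 14 were higher and 2 lower in WT, 16 were higher and 2 lower in the rescue, and 15 were restored within 2-fold, with list medians of 0.57 and 0.62. The WT median was smaller than the margin, and for such genes the class does not measure how complete the return was. Pecam1, an adhesion molecule of endothelial junctions, had 99.1, 80.6 and 104 CPM in WT against 49.5, 50.9 and 52.4 CPM in KO. In experiment 2 it had 75.6, 83.8, 94.7 and 102 CPM in the rescue against 49.3, 46.4, 41.5 and 46.6 CPM in KO. The groups did not overlap in either experiment, and the difference of effects was 0.06 ± 0.15 (equivalence adjusted p = 5.5e-05). Its WT effect of 0.89 was smaller than the margin, and its rescue effect was 0.95 ± 0.10. The 2 endothelial genes lower in WT and in the rescue were Angpt2, an antagonist of the TIE2 receptor, and Vwf, a clotting factor carrier, and both were restored within 2-fold.

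Cell cycle genes were lower in WT for 25 of 34 and in the rescue for 22, and 20 were restored within 2-fold. Their medians were -0.57 in WT and -0.38 in the rescue, a median difference of 0.21. Mcm5, a subunit of the replicative helicase, was among the restored genes with a WT effect of -0.79 and a rescue effect of -0.41 (difference 0.38 ± 0.11, adjusted p = 0.27). Its WT effect was smaller than the margin, so this class does not show a full return. Cdkn1c, a cyclin-dependent kinase inhibitor, was higher in WT at 0.99 and stood at 0.07 in the rescue, with a difference of -0.92 ± 0.23 that edgeR did not call (adjusted p = 0.20) and DESeq2 did (adjusted p = 0.042).

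The granulosa and FSH response list held both restored and unresolved genes. Of 37 genes, 17 were higher and 6 lower in WT, 18 were higher and 8 lower in the rescue, 13 were restored within 2-fold and 10 were unresolved. Over all genes tested, 9.21% were higher and 10.1% lower in WT, and 11.6% higher and 12.7% lower in the rescue. Restored genes were 9.84% of all tested and unresolved genes 9.35%. Amh, the hormone of small growing follicles, had 212, 255 and 341 CPM in WT and 950, 1000 and 1010 CPM in KO. In experiment 2 it had 479, 547, 391 and 518 CPM in KO and 232, 177, 130 and 116 CPM in the rescue. Groups did not overlap, although the KO level itself differed between the experiments, and the difference of effects was 0.31 ± 0.31 (equivalence adjusted p = 0.036). Fst, the activin-binding follistatin, and Hsd17b1, which converts estrone to estradiol, were likewise restored, with differences of -0.32 ± 0.19 and 0.20 ± 0.21. Their WT effects of 0.88 and 0.61 were smaller than the margin.

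Inhba, which encodes a subunit shared by inhibin A and activin A, had the highest difference of effects of the 37 genes, which edgeR did not call and DESeq2 did. It had 689, 1210 and 504 CPM in WT, and 42.5, 31 and 38.0 CPM in the KO libraries of experiment 1. In experiment 2 it had 18.8, 6.58, 10.2 and 8.83 CPM in KO and 1130, 1330, 861 and 1130 CPM in the rescue. The rescue libraries overlapped the WT libraries, while every KO library of experiment 2 lay below every KO library of experiment 1. The WT effect was 4.43 ± 0.41 and the rescue effect 6.65 ± 0.40, and their difference was 2.22 ± 0.49 (95% interval 1.15 to 3.28, edgeR adjusted p = 0.14, DESeq2 0.0096). Cyp19a1, the aromatase that makes estrogen, showed the same layout: 66.2, 127 and 52.4 CPM in WT, 6.16, 7.03 and 5.74 CPM in KO, then 3.96, 2.17, 1.32 and 1.94 CPM in KO and 99.7, 131, 58.9 and 65.4 CPM in the rescue. Its difference was 1.56 ± 0.58 (adjusted p = 0.52). Fshr, the FSH receptor, had neither effect called (-0.56 ± 0.28 and -0.10 ± 0.24).

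Luteal genes with a WT effect were mostly unresolved, and their libraries differed widely within groups. Of 24 luteal genes, 13 were higher in WT and 17 in the rescue, yet 2 were restored within 2-fold and 11 were unresolved. Over all genes tested, 9.21% were higher in WT, 11.6% higher in the rescue, 9.84% restored and 9.35% unresolved. The 2 restored luteal genes were near the share of all genes. The summed level of the luteal list was 12700, 9740 and 2560 CPM in the WT libraries and 4300, 5690, 16800 and 20100 CPM in the rescue libraries, against 2110 to 2530 CPM in the KO libraries of experiment 1 and 1830 to 2400 CPM in those of experiment 2. WT replicate 3 therefore stood near the KO level, and rescue replicates 3 and 4 were far above replicates 1 and 2. Ptgfr, the prostaglandin F receptor of luteal cells, had 565, 574 and 7.40 CPM in WT and 227, 355, 1110 and 1390 CPM in the rescue, with a difference of effects of 2.15 ± 1.65 (95% interval -1.49 to 5.78). Star, which carries cholesterol into mitochondria, had 1610, 591 and 131 CPM in WT and 267, 435, 3410 and 4160 CPM in the rescue, and its difference was 0.97 ± 1.3 (95% interval -1.90 to 3.85). The estrous stage is not given for these libraries, so its part in this spread was not tested. Of 23 steroidogenesis genes, 11 were higher and 4 lower in WT, 13 were higher and 5 lower in the rescue, 5 were restored within 2-fold and 10 were unresolved. Of 24 theca genes, 4 were higher and 9 lower in WT, 5 were higher and 14 lower in the rescue, and 8 were restored. The shares called lower over all genes tested were 10.1% in WT and 12.7% in the rescue. Hsd3b1, which makes progesterone from pregnenolone, was bounded all the same, with a difference of -0.16 ± 0.33 (equivalence adjusted p = 0.020).

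Several genes high in the KO ovary and low in both WT and rescue were unresolved. Ren1, which encodes renin, had 1.69, 1.90 and 2.29 CPM in WT, 56.1, 40.5 and 40.2 CPM in KO of experiment 1, 28.2, 20.5, 42.6 and 38.8 CPM in KO of experiment 2 and 2.33, 1.84, 1.12 and 0.693 CPM in the rescue. Its difference of effects was 0.11 ± 0.49 with an equivalence adjusted p of 0.071. Svs5, a seminal vesicle secretory protein gene, had a difference of -0.19 ± 0.51 (equivalence adjusted p = 0.10). Insl3, the peptide hormone of theca and Leydig cells, had a WT effect of -4.14 ± 0.61 and a rescue effect of -6.04 ± 0.59, and the difference of -1.90 ± 0.77 was not called (adjusted p = 0.60).

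Outside the lists, the restored genes with the largest WT effect that kept the sign of their difference whichever library was left out included Ctnna2, Gpt2 and Ptk2b. Ctnna2, an alpha-catenin, had a WT effect of 2.63 ± 0.21 and a rescue effect of 2.35 ± 0.18. Gpt2, the mitochondrial alanine aminotransferase, had effects of -2.29 ± 0.21 and -2.14 ± 0.18. Ptk2b, the PYK2 kinase, had 62.9, 79.1 and 68.9 CPM in WT, 13.8, 15.3 and 15.3 CPM in KO, then 13.3, 11.1, 14.8 and 12.2 CPM in KO and 43.3, 54.0, 55.5 and 59.4 CPM in the rescue. The KO libraries of both experiments stood at one level and the groups did not overlap, with a difference of -0.20 ± 0.17 (equivalence adjusted p = 0.00054). Masp1, Aldh1a7, Dpep1 and Aard had a WT effect of 2.3 log2 units or more in size and passed the equivalence test before adjustment alone, with adjusted p between 0.058 and 0.074.

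**Figure D2:**
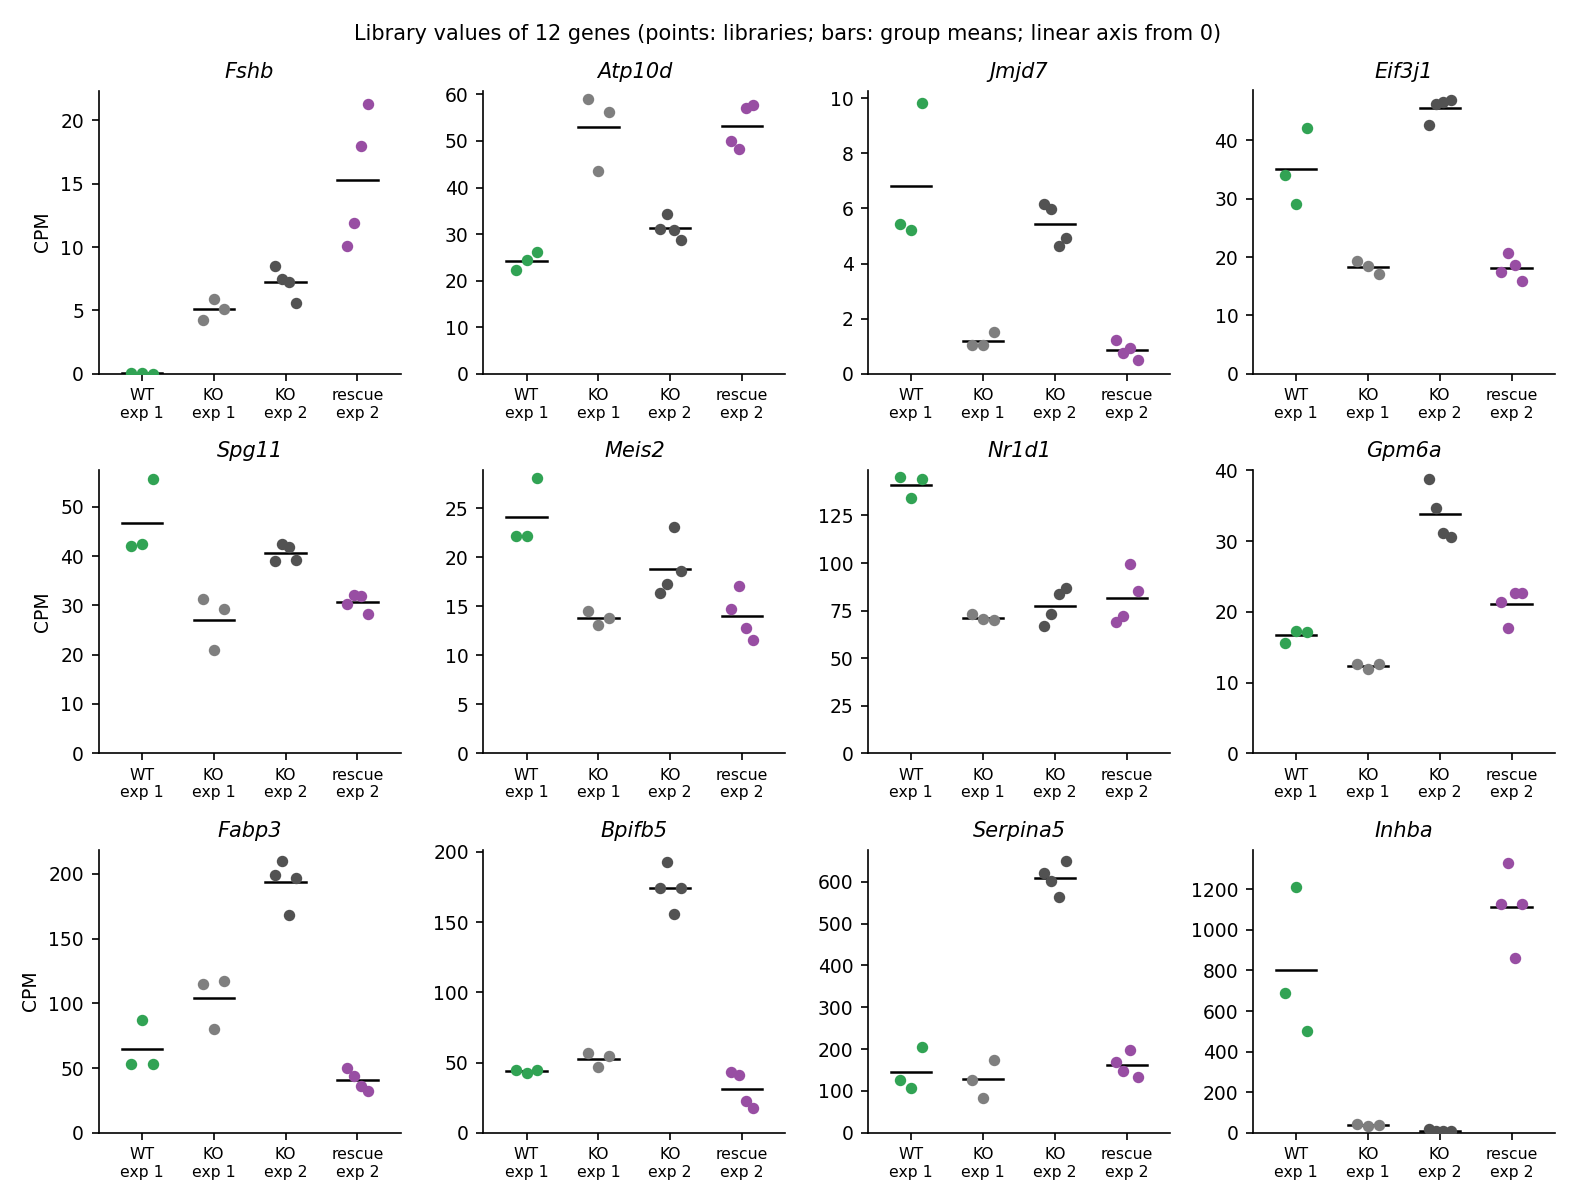
Level of 12 genes in CPM (y axes, linear from 0) in the 3 WT and 3 KO libraries of experiment 1 and the 4 KO and 4 rescue libraries of experiment 2 (points), with group means as bars. Jmjd7, Eif3j1 and Spg11 are high in WT and in the KO of experiment 2 and low in the other groups, Fabp3, Bpifb5 and Serpina5 are highest in the KO of experiment 2, and Nr1d1 is high in the WT libraries.

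The under-restored genes lay in part close to Fshb on chromosome 2. Of the 39 genes called, 14 were on this chromosome, which is 0.99% of its 1414 genes tested against 0.212% of all genes. Within 10 Mb of Fshb, 2 of 81 genes were called (2.47%), Fshb and Meis2. Within 20 Mb, 10 of 284 were called (3.52%), 9 of them under-restored and 1 rescue-only. The 8 others were Jmjd7, Gm28042, Pla2g4b, Eif3j1, Spg11, Strc, Mapkbp1 and Ivd. Of the 284 genes, 32 were restored within 2-fold, where 9.84% of all genes tested were. The strains are not given in the labels. For Jmjd7 and Spg11, KO of experiment 2 stood above KO of experiment 1, by 2.17 and 0.58 log2 units. Of these contrasts, edgeR called both (adjusted p = 0.00014 and 0.0031), but not the 0.27 of Mapkbp1 (adjusted p = 0.087). The part of linked sequence or of the loss of FSH in these differences was not tested.

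**Figure D3:**
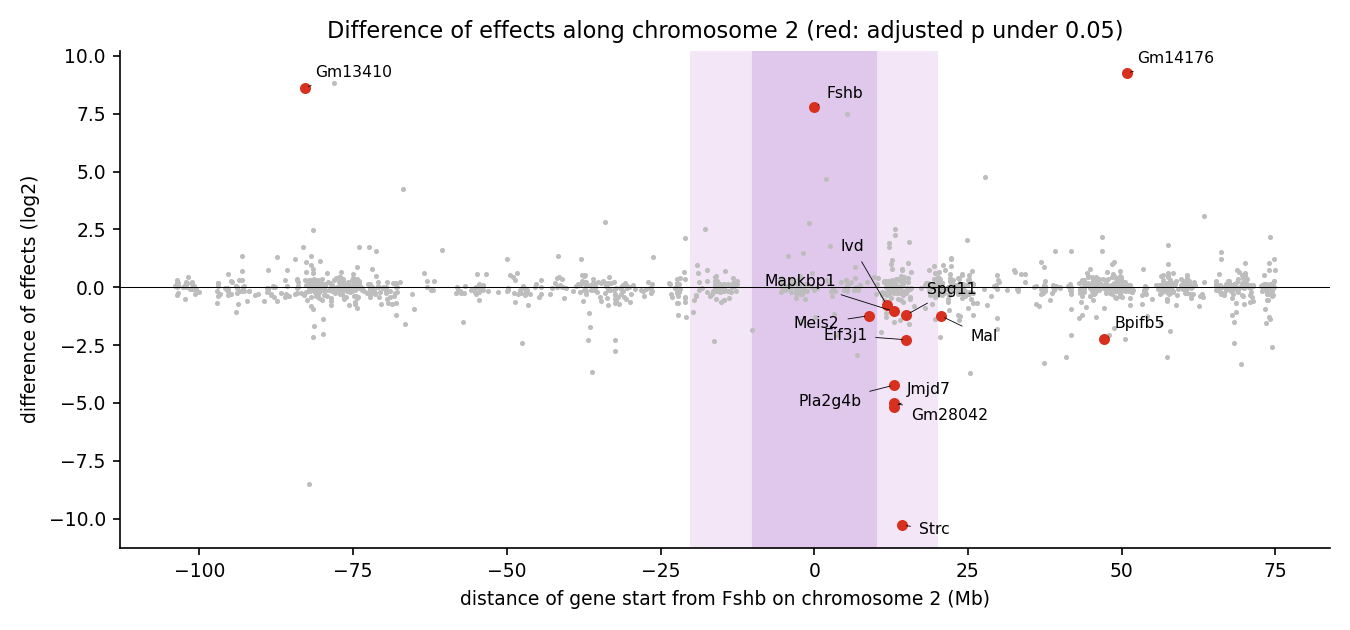
Difference of effects (log2, y axis) of the 1414 chromosome 2 genes tested, by distance in Mb between the midpoints of the gene and of Fshb (x axis, whose label reads gene start), with called genes in red and bands at 10 and 20 Mb. Apart from Fshb, the called genes within 20 Mb have negative differences and lie on one side of it.

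Several called genes near Fshb were at the Jmjd7 and Pla2g4b locus. Jmjd7 (ENSMUSG00000098789, chr2:120027483-120032594, plus strand), a JmjC-domain lysyl hydroxylase, had 5.43, 5.2 and 9.81 CPM in WT and 1.06, 1.05 and 1.5 CPM in KO of experiment 1. In experiment 2 it had 6.17, 5.97, 4.62 and 4.91 CPM in KO and 1.23, 0.746, 0.924 and 0.495 CPM in the rescue. The groups did not overlap in either experiment, and the KO libraries of experiment 2 stood at the WT level of experiment 1 while the rescue libraries stood at the KO level. The WT effect was 2.50 ± 0.33, the rescue effect was -2.66 ± 0.29, and the difference of effects was -5.16 ± 0.44 (edgeR adjusted p = 6.7e-05). Gm28042 overlaps Jmjd7 and Pla2g4b on the same strand, so reads of these 3 genes may be split among them. Their summed level gave a difference of -4.80 ± 0.30 (adjusted p = 6.2e-06).

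Eif3j1, a subunit of the translation initiation factor eIF3, had 34.1, 29.1 and 42.2 CPM in WT, 19.3, 18.5 and 17.1 CPM in KO, then 42.6, 46.2, 46.6 and 47.0 CPM in KO and 17.5, 20.7, 18.6 and 15.9 CPM in the rescue. The order was that of Jmjd7 and the groups did not overlap, with a difference of -2.27 ± 0.17 (adjusted p = 1.7e-05). Summed with its near-identical copy Eif3j2, the difference was -0.02 ± 0.09 and the call ended. Spg11, which encodes spatacsin, a protein of lysosome renewal, followed with 42.1, 42.5 and 55.7 CPM in WT and 31.2, 20.9 and 29.2 CPM in KO. It had 38.9, 42.4, 41.9 and 39.1 CPM in KO and 30.2, 32.0, 31.9 and 28.2 CPM in the rescue of experiment 2, again with no overlap, and a difference of -1.19 ± 0.18 (adjusted p = 0.018). Its 3' end overlaps Eif3j1 on the other strand, and the strand setting of the counting is not given in the sources used here, so reads of the shared stretch cannot be told apart. Strc, the gene of the inner ear protein stereocilin, was at 0 in all 4 rescue libraries, where 3 counts over the group put it at least 6.79-fold below the KO libraries of that experiment. Its call ended without KO replicate 1 of experiment 1 (adjusted p = 0.061). Mapkbp1, a scaffold of the JNK pathway, had a difference of -1.04 ± 0.16 (adjusted p = 0.019), which was 0.050 without KO replicate 4 of experiment 2.

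Meis2, a homeodomain transcription factor gene 8.9 Mb from Fshb, had 22.2, 22.2 and 28.1 CPM in WT and 14.5, 13.1 and 13.8 CPM in KO. In experiment 2 the KO libraries had 16.4, 17.3, 23.1 and 18.6 CPM and the rescue libraries 14.7, 17.1, 12.8 and 11.6 CPM, so these groups overlapped. Its difference was -1.23 ± 0.21 (adjusted p = 0.032) and its call ended in 10 of the 14 fits that left out 1 library (highest adjusted p 0.090). Ivd, an enzyme of leucine breakdown, was rescue-only, with effects of 0.21 ± 0.10 in WT and -0.56 ± 0.08 in the rescue. Its call ended in 5 of the 14 fits (highest adjusted p 0.077).

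Away from chromosome 2, Atp10d had the smallest p among under-restored genes with no near-identical copy found. Atp10d (ENSMUSG00000046808, chr5:72203329-72298775, plus strand), a lipid flippase gene that the annotation marks as a polymorphic pseudogene, had 22.2, 24.4 and 26.2 CPM in WT and 59, 43.6 and 56.2 CPM in KO. In experiment 2 it had 31.2, 34.3, 30.8 and 28.8 CPM in KO and 50.1, 48.2, 57.1 and 57.8 CPM in the rescue. The groups did not overlap and the KO and rescue levels stood in the reverse order of KO and WT, with a difference of 1.89 ± 0.16 (adjusted p = 4.9e-05). In the 16 libraries of experiment 3, Atp10d ran from 13.4 to 58.4 CPM with no stage called against the libraries labelled KO (anestrus).

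Gpm6a, a membrane glycoprotein best known from neurons, had 15.6, 17.3 and 17.2 CPM in WT and 12.6, 11.9 and 12.6 CPM in KO. It had 38.7, 34.7, 31.1 and 30.6 CPM in KO and 21.4, 17.7, 22.6 and 22.6 CPM in the rescue of experiment 2. The rescue libraries stood slightly above the WT libraries, and the KO libraries of experiment 2 were highest. Its difference was -1.11 ± 0.15 (adjusted p = 0.0087), and the call held in all 14 fits that left out 1 library. Klhl42, an adaptor of CUL3 ubiquitin ligases named here after its values were seen, had a difference of -0.88 ± 0.13 (adjusted p = 0.018) that also held in all 14.

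Some under-restored genes kept their call in few of these fits. Stox2, a winged-helix protein gene also named after its values were seen, was the single under-restored gene whose rescue effect was called in the WT direction. It had 63.4, 61.9 and 45.8 CPM in WT, 21.6, 20.3 and 24.7 CPM in KO, then 33.3, 28.9, 32.0 and 35.0 CPM in KO and 44.6, 42.9, 44.7 and 44.5 CPM in the rescue. The groups did not overlap, and the rescue effect of 0.45 ± 0.10 fell short of the WT effect of 1.36 ± 0.12, a difference of -0.91 ± 0.15 (adjusted p = 0.030, call ended in 11 of 14 fits, highest adjusted p 0.082). Fam169a had effects of 0.80 ± 0.13 and -0.14 ± 0.11 and a difference of -0.95 ± 0.17 (adjusted p = 0.046, ended in 12 of 14, highest 0.12). Gdpd2, a glycerophosphodiester phosphodiesterase gene, had effects of -0.80 ± 0.16 and 0.38 ± 0.14 and a difference of 1.19 ± 0.22 (adjusted p = 0.046, ended in 11 of 14, highest 0.12). Mal, a raft-associated membrane protein gene 20.6 Mb from Fshb, had effects of 0.55 ± 0.16 and -0.69 ± 0.13 and a difference of -1.24 ± 0.21 (adjusted p = 0.029, ended in 9 of 14, highest 0.081). For Fam169a, Gdpd2 and Mal, rescue minus WT was 0.15, -0.16 and -0.04, none called. KO of experiment 2 minus KO of experiment 1 was 1.1, -1.34 and 1.2, all called. The difference of effects is rescue minus WT less this KO contrast. Where rescue is near WT, a called difference therefore fixes a KO difference, and these KO values are no separate evidence. Over all genes tested, 36.9% were called in the KO contrast.

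Nr1d1, which encodes the REV-ERB alpha repressor of the circadian clock, was the under-restored member of the clock list. It had 145, 134 and 144 CPM in WT and 73, 70.8 and 70.3 CPM in KO. In experiment 2 the KO libraries had 66.8, 73.2, 83.9 and 86.7 CPM and the rescue libraries 69, 72.3, 99.3 and 85.5 CPM. WT and KO did not overlap, whereas KO and rescue overlapped throughout. The WT effect was 0.98 ± 0.13, the rescue effect was 0.07 ± 0.11, and the difference was -0.91 ± 0.17 (adjusted p = 0.046). The call ended in 12 of the 14 fits that left out 1 library, with a highest adjusted p of 0.11. The Fshb(+/-) libraries had 252, 195 and 184 CPM.

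For the difference of effects over the clock list, edgeR called Nr1d1 alone, limma voom called 1 gene and DESeq2 called 5, all negative. Of 19 genes, 8 were higher and 3 lower in WT, none was higher and 3 were lower in the rescue by edgeR (2 higher at an unadjusted p under 0.05, 2 called higher by DESeq2 and 1 by limma voom), 2 were restored within 2-fold and 8 were unresolved. The list median was 0.58 in WT and -0.06 in the rescue, a median difference of -0.57 against 0 over all genes. Tef, a PAR-domain activator, had a difference of -0.69 ± 0.14 (edgeR adjusted p = 0.074, DESeq2 0.00095), and Nr1d2, the paralog REV-ERB beta, had -0.73 ± 0.17 (edgeR adjusted p = 0.14, DESeq2 0.0066). Arntl, the activator BMAL1 that peaks opposite to REV-ERB alpha, had the reverse sign, -0.47 in WT and 0.20 in the rescue. The summed level of the list was 598 to 740 CPM in the KO libraries of experiment 1 and 928 to 1170 CPM in the other 11 libraries, so those 3 libraries stood apart in the sum. Nr1d1 itself was laid out otherwise. Its WT libraries (134 to 145 CPM) stood apart, and its KO libraries of experiment 1 (70.3 to 73 CPM) lay within the range of experiment 2 (66.8 to 99.3 CPM). Time of day of collection is not given in the labels, and its part was not tested.

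The 250 bases before the gene start are shown for Nr1d1, the called clock gene, and for Tef, the clock gene next in p, because CACGTG, the E-box bound by the clock activators, can be read in them. They are from RefSeq (GRCm38.p6), 5′ to 3′ on the gene's strand, with CACGTG in capitals. Nr1d1 lies at chr11:98775378-98775627 on the minus strand and the Tef start shown at chr15:81811164-81811413 on the plus strand.
Nr1d1: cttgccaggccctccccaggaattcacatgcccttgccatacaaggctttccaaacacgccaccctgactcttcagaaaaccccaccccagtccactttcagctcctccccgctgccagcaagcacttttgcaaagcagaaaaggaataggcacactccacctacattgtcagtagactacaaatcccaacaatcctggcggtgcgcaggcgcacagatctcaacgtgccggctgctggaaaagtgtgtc
Tef: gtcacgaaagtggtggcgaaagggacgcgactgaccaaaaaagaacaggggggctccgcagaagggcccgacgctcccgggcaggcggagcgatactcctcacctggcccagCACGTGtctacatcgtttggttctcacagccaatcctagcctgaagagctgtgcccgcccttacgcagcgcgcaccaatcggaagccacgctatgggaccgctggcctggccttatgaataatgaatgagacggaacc
The Nr1d1 window has no CACGTG, and each of the 2 Tef starts in the table has 1. Of the 16 clock genes matched in the promoter table, 5 hold it in this window (Bhlhe41, Ciart, Cry1, Per1 and Tef), on either strand since the motif reads the same on both. It occurs in 6.86% of the 27025 genes in the promoter table and in 6.02% of all 32851 windows of the same length. These matches describe letters in the windows and nothing about binding.

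Over-restoration was called for Fabp3 and Kpna2. Fabp3, a carrier of fatty acids, had 53.3, 87.3 and 52.9 CPM in WT and 115, 80.1 and 117 CPM in KO, where the groups overlapped. In experiment 2 it had 199, 210, 168 and 197 CPM in KO and 50.1, 43.9, 36.3 and 32.5 CPM in the rescue, with no overlap. The WT effect was -0.69 ± 0.21, the rescue effect was -2.25 ± 0.19, and the difference was -1.56 ± 0.28 (adjusted p = 0.046), a call that ended in 12 of 14 fits without 1 library (highest adjusted p 0.11). The KO level was higher in experiment 2, by 0.90 log2 units (edgeR adjusted p = 0.0033), a value that enters the difference itself. In experiment 3, which shares no library with these, Fabp3 was lower by 2.19, 1.76 and 2.58 log2 units in stages DE, PE and E than in the libraries labelled KO (anestrus), each called, which is nearer to the rescue effect than to the WT effect. Kpna2 is taken up with its copies below.

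Most rescue-only genes stood out through the KO libraries of experiment 2. Serpina5, the protein C inhibitor, had 126, 108 and 205 CPM in WT, 127, 82.7 and 174 CPM in KO, then 621, 601, 564 and 649 CPM in KO and 169, 147, 197 and 134 CPM in the rescue. WT, KO of experiment 1 and rescue overlapped one another, and the KO libraries of experiment 2 alone were high. The WT effect was 0.19 ± 0.26, the rescue effect was -1.91 ± 0.23 and the difference was -2.11 ± 0.35 (adjusted p = 0.031, call ended in 9 of 14 fits, highest 0.092). Bpifb5, of the BPI-fold lipid-binding family, had 44.8, 42.6 and 44.7 CPM in WT and 57.1, 46.6 and 54.7 CPM in KO. It had 174, 193, 156 and 174 CPM in KO and 43.3, 41.5, 22.3 and 17.5 CPM in the rescue of experiment 2. The KO libraries of experiment 2 were again far above the rest, while KO of experiment 1 overlapped neither WT nor rescue, with a difference of -2.22 ± 0.36 (adjusted p = 0.029, ended in 9 of 14, highest 0.096). Serpina3a, another serpin, had a difference of -2.81 ± 0.49 (adjusted p = 0.035, ended in 10 of 14, highest 0.094).

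These 3 genes could be set beside experiment 3 as well. Serpina5 was at -1.83, -1.5 and -1.97 in DE, PE and E against the libraries labelled KO (anestrus), called in DE and E and not in PE (adjusted p = 0.052). Bpifb5 was lower by 2.22, 2.22 and 2.68, and Serpina3a by 2.98, 2.55 and 4.76, all called. The anestrus libraries varied widely. Serpina5 had 291, 165, 632 and 168 CPM there and Serpina3a 6.25, 3.49, 29.1 and 2.43 CPM, so replicate 3 was highest in both, and Bpifb5 ran from 45.8 to 137 CPM. For Serpina5, replicates 2 and 4 stood at the level of PE replicate 4 (166 CPM).

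Cadm1, an adhesion molecule, had effects of 0.44 ± 0.21 and -1.20 ± 0.18 and a difference of -1.64 ± 0.28 (adjusted p = 0.033, ended in 7 of 14, highest 0.10), and its KO level was again higher in experiment 2, by 1.67. Atp1b1, the beta subunit of the sodium pump, had 58.9, 59.8 and 54.0 CPM in WT, 65.4, 59.9 and 60.7 CPM in KO, then 89.1, 87.7, 89.6 and 89.9 CPM in KO and 59.4, 58.4, 54.3 and 54.4 CPM in the rescue. The KO libraries of experiment 2 alone were high, and the difference of -0.55 ± 0.09 (adjusted p = 0.019) was lost without KO replicate 3 or WT replicate 1 of experiment 1 or KO replicate 4 of experiment 2 (highest adjusted p 0.056). Prss35, a protease-like protein expressed in follicles, went the other way: 334, 293, 318 and 343 CPM in KO of experiment 2 against 481 to 644 CPM in the other 10 libraries, a difference of 0.85 ± 0.15 (adjusted p = 0.040, ended in 12 of 14, highest 0.11). Over all genes, KO of experiment 2 differed from KO of experiment 1 for 6784 genes (36.9%) and rescue from WT for 6582 (35.8%). These contrasts also hold whatever else differed between the experiments, and the effects above are taken within each experiment.

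Near-identical copies were common among the called genes. A stretch of at least 150 bases with at least 95% identity in another gene was found for 17 of the 39 (43.6%), against 21.8% of the genes tested. For 14 (35.9%) a copy lay at another locus, against 18.0% of the genes tested. Since the deposited counts are estimates that divide shared reads among copies, the level of 1 copy is uncertain. Amd2 and Tma7-ps, which were chosen for display after their values were seen, show how close such copies are. Below are 150 bases of the Amd2 and Amd1 coding sequence around the single base that differs, and the whole of Tma7-ps beside the coding sequence of Tma7, from GENCODE M21 transcripts, 5′ to 3′, with differing bases in capitals.
Amd2: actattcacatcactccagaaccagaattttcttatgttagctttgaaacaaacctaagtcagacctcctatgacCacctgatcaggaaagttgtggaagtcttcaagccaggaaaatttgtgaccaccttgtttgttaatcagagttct
Amd1: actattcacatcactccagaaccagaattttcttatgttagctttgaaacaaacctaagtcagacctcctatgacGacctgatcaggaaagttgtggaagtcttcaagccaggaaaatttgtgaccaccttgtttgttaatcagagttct
Tma7-ps: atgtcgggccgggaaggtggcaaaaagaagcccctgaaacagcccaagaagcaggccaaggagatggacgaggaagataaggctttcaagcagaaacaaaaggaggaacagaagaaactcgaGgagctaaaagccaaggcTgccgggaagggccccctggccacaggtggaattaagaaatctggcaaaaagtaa
Tma7: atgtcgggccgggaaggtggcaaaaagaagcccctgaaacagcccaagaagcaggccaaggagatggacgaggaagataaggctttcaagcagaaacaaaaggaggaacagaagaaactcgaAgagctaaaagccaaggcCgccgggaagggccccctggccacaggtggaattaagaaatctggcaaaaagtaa
Counted from 1 at the start codon, Amd2 differs from Amd1 by G796C in 1005 coding bases, and Tma7-ps differs from Tma7 by A123G and C141T in 195. The Amd2 stretch lies at chr10:35710690-35710839 and the Amd1 stretch between chr10:40289464-40290261, where it spans an intron, both on the minus strand. Tma7-ps lies at chr1:171711088-171711282 on the plus strand, and the Tma7 coding sequence spans introns on chromosome 9.

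Amd2 had the smallest p of all genes. Both Amd genes encode S-adenosylmethionine decarboxylase, an enzyme of polyamine synthesis. Amd2 had 0.375, 0.127 and 0.542 CPM in WT, 4.54, 5.23 and 3.99 CPM in KO, then 0.301, 0.695, 0.495 and 0.425 CPM in KO and 9.0, 9.92, 7.39 and 7.97 CPM in the rescue. The groups did not overlap, and the difference was 7.82 ± 0.48 (adjusted p = 4.7e-06). The mean level of Amd1 in the same groups was 90.4, 118, 184 and 124 CPM, so Amd2 held a small share of the pair in every group. With the copies of Amd summed, the WT effect was -0.44 and the rescue effect -0.47, a difference of -0.03 ± 0.15 that was restored within 2-fold. In experiment 3, Amd2 had 15.3 and 16.5 CPM in 2 of the libraries labelled KO (anestrus), and 0 and 0.374 CPM in the others.

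Summing ended most other calls of this kind as well. Kpna2, an importin that carries proteins into the nucleus, had a mean of 84.9, 124, 126 and 44.8 CPM in WT, KO, KO and rescue, while its copy Gm10184 had 0, 1.11, 2.06 and 52.0 CPM. Their family together gave a WT effect of -0.55, a rescue effect of -0.40 and a difference of 0.16 ± 0.13, restored within 2-fold, so the over-restoration of Kpna2 was not present in the sum. Eif3j1 and Eif3j2, whose sum is given above, had opposite differences, -2.27 and 0.80. Morf4l1-ps1 went from -2.07 ± 0.21 to 0.04 ± 0.08 with Morf4l1 and other copies, and Tma7-ps from -3.02 ± 0.49 to 0.25 ± 0.20. Fabp3 with its pseudogene stayed at -1.56 ± 0.28 but missed the threshold (adjusted p = 0.069). With the families of the called genes summed before the fit, a step chosen after seeing the data and applied to no other family, 12 calls were left. Of the calls lost, 12 were of genes in a summed family and 13 of genes in none, whose own counts were unchanged while the adjusted p moved past the threshold: Nr1d1, Serpina5, Bpifb5, Serpina3a, Cadm1, Meis2, Mal, Stox2, Prss35, Gdpd2, Fam169a, Psmb11 and A130077B15Rik. The calls left were the Jmjd7, Gm28042 and Pla2g4b sum, Fshb, Atp10d, Gpm6a, Gm13410, A930033H14Rik, Spg11, Klhl42, Strc, Mapkbp1, Atp1b1 and Ivd.

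**Figure D4:**
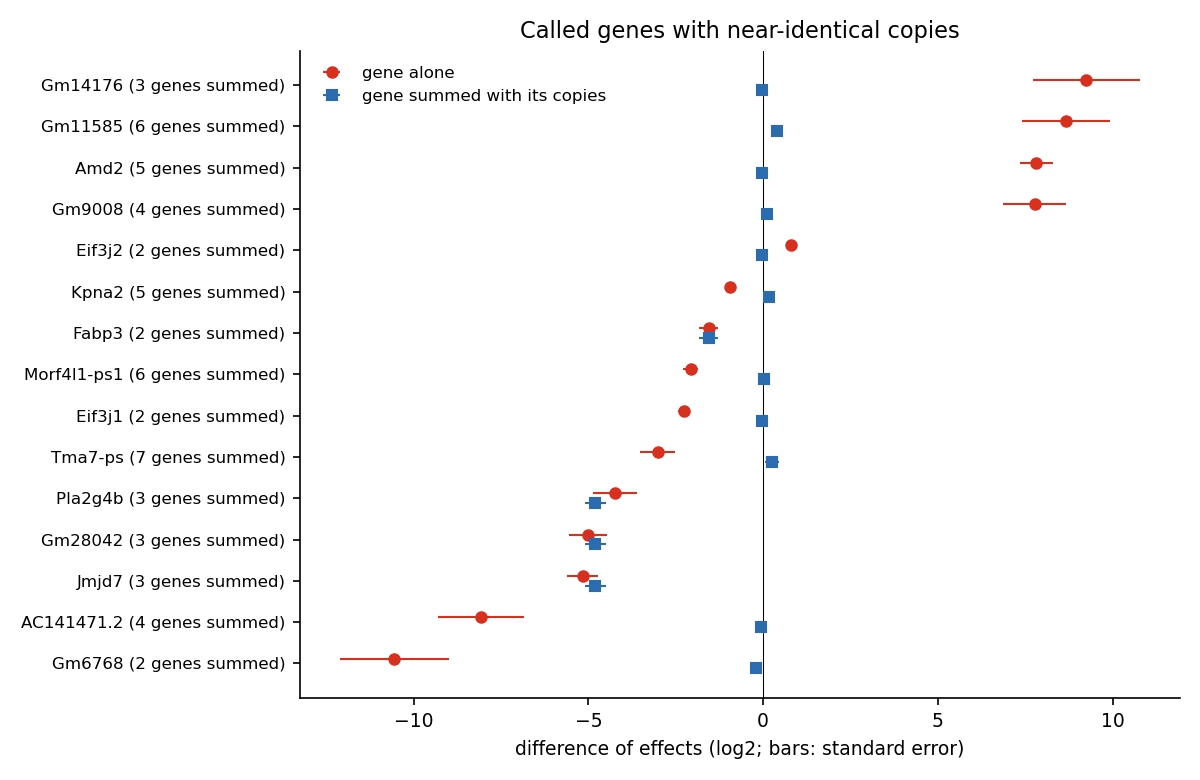
Difference of effects (log2, x axis; bars are standard errors) for 15 called genes with near-identical copies, each alone (red circles) and summed with its copies (blue squares). The sums lie between -0.19 and 0.39 for all but Fabp3 and the 3 overlapping genes Jmjd7, Gm28042 and Pla2g4b.

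A few called genes were at 0 in one group, where fitted values depend on the prior count and only a bound against 3 counts over that group can be given. In WT the pseudogenes Gm13410, Gm11585 and Gm14176 were at least 34.2-fold, 32.8-fold and 118-fold lower than in KO of experiment 1. Gm6768 and AC141471.2 were at least 134-fold and 26.8-fold higher in WT than in those KO libraries. Psmb11, a thymus-type proteasome subunit gene, was at least 8.73-fold lower in the rescue than in KO of experiment 2. Of the 39 called genes, 11 had names of predicted models, clones or pseudogenes, and 14 had a group mean under 1 CPM.

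In some other lists the medians of the effects lay further apart, although edgeR called no member's difference. Of 20 interferon response genes, edgeR called 0 in the WT effect (0 at an unadjusted p under 0.05, 0 by DESeq2 and 1 by limma voom) and 15 in the rescue effect, all higher, with list medians of -0.01 and 1.0. For their difference, 12 had an unadjusted p under 0.05, all positive, and DESeq2 called 6 and limma voom 1. Oas2, an antiviral oligoadenylate synthetase, had 5.43, 3.87 and 3.25 CPM in WT, 5.47, 4.78 and 4.43 CPM in KO, then 1.96, 2.90, 2.02 and 1.98 CPM in KO and 5.53, 4.61, 9.19 and 8.97 CPM in the rescue. The KO libraries of experiment 2 were lowest and rescue replicates 3 and 4 highest, and the difference was 1.89 ± 0.38 (edgeR adjusted p = 0.076, DESeq2 0.0016). Irf7, the interferon regulator, had a difference of 0.95 ± 0.22 (edgeR adjusted p = 0.14, DESeq2 0.014).

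Of 14 surface epithelium genes, 9 were lower and 1 higher in the rescue, against 12.7% and 11.6% of all genes tested. In WT 1 was lower and 1 higher, near the 10.1% and 9.21% of all genes tested. The medians of these surface epithelium genes were -0.92 in the rescue and 0.15 in WT. Their summed level was 574 to 685 CPM in WT, 562 to 702 and 563 to 706 CPM in the KO groups, and 384 to 536 CPM in the rescue, where rescue replicate 2 was highest. For their difference, 6 had an unadjusted p under 0.05, and DESeq2 called 3 and limma voom 0. Upk1b, a uroplakin, had the smallest p, with a difference of -1.66 ± 0.38 (edgeR adjusted p = 0.14, DESeq2 0.0031). Erythrocyte genes were higher in the rescue for 6 of 6 and in WT for 0 (0 at an unadjusted p under 0.05, 0 by DESeq2 and limma voom), with medians of 1.73 and 0.73, and WT replicate 2 had 700 CPM in sum against 150 and 217 CPM in the other WT libraries. Cholesterol synthesis and uptake genes were higher in the rescue for 7 of 30 and in WT for 1, against 11.6% and 9.21% of all genes tested. Their medians were 1.13 and 0.54, and DESeq2 called 15 of them higher in the rescue. Their summed level was 3730, 4310, 13900 and 15800 CPM in the rescue against 3360 to 4120 CPM in KO, so rescue replicates 3 and 4 alone stood clearly above KO. In WT it was 10600, 4830 and 3070 CPM, with replicate 1 highest.

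**Figure D5:**
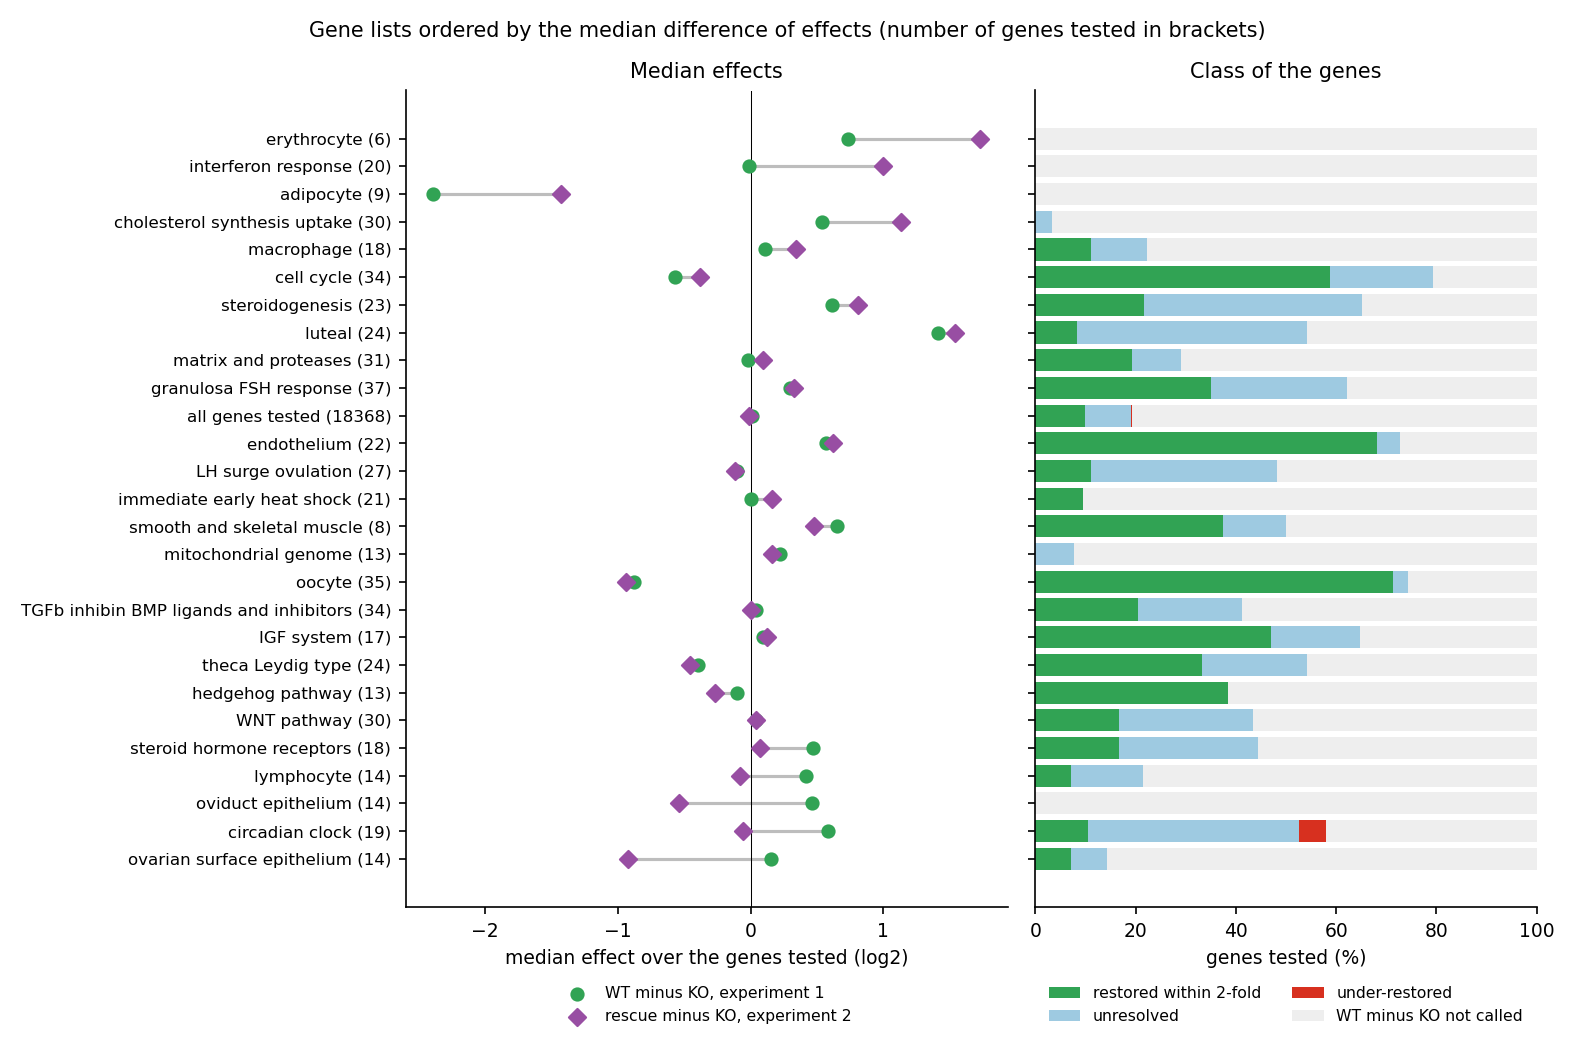
Left, median WT effect (circles) and median rescue effect (diamonds) of each gene list in log2, with the number of genes tested in brackets, ordered by the median difference of effects; right, percentage of those genes in each class. The oocyte and endothelium lists have nearly equal medians and mostly restored genes, while the interferon response, surface epithelium and circadian clock lists have medians far apart.

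Markers of other cells were looked at in every library. The oviduct epithelium list summed to 43.8 to 67.4 CPM in experiment 1, but to 484 and 195 CPM in KO replicates 3 and 4 and 644 CPM in rescue replicate 2 of experiment 2, against 36.0 to 53.3 CPM in the other 5 libraries there. Of its 14 genes tested, edgeR called 0 in either effect (0 at an unadjusted p under 0.05), DESeq2 called 0 and limma voom called 1, lower in the rescue. Lymphocyte genes summed to 20.9 to 40.5 CPM over all 14 libraries. The part of such cells in the differences was not tested.

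Experiment 3 gave values that no class had used. Its stages DE, PE and E were compared with its libraries labelled KO (anestrus), whose genotype label reads WT. The mean of the 3 stage effects had the sign of the WT effect for 1723 of 1807 restored genes (95.4%) and for 1349 of 1635 unresolved genes tested (82.5%). It did so for 17 of 21 under-restored genes tested and for both over-restored genes, against 67.3% of all 16543 genes tested in both fits. Inhba was at 5.40, 5.83 and 4.45 in DE, PE and E, all called and between its WT effect and its rescue effect. Eif3j1 was higher in DE and PE, by 1.10 and 1.70, but single libraries went against their group: E replicate 3 had 13.2 CPM and DE replicate 3 had 19.9 CPM, in the anestrus range of 17.6 to 21.8 CPM or below it, against 39.4 CPM and more in the other cycling libraries. Jmjd7 divided the same libraries, with 0.933 and 0.899 CPM in E replicate 3 and DE replicate 3 and 2.65 to 8.46 CPM in the other 10 cycling libraries.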

How the data were processed

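RNA from whole mouse ovaries was sequenced, and the authors deposited estimated counts per gene, not scaled for depth, which need not be whole. Tools and build named per the submitters' processing notes are Salmon, DESeq2 and GRCm38, with no versions or roles, and no source used here gives the strand setting. The columns were matched to libraries by name, and 0 columns of per-sample values went unused. Identifiers were named from GENCODE M21: 54094 of 54347 matched, and 0.0047% of counts had no symbol. Counts were rounded, filtered with filterByExpr, scaled by TMM and fitted with edgeR 4.0.16 (robust quasi-likelihood, R 4.3.3) in 1 model of the 4 groups. CPM use TMM-scaled library sizes. P-values were adjusted over all 18368 genes by the Benjamini-Hochberg method, with a threshold of 0.05. Alternatives were DESeq2 1.42.0, limma 3.58.1 (voom), other size factors and filters, the Fshb(+/-) libraries added, experiments fitted apart, a replicate block and leaving out each library. Copies were found with blastn 2.17.0.

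No libraries were duplicates: pairs within groups differed by 5.3 to 65.4 chi-square units per degree of freedom. In simulated data with the depths of the 14 libraries, the fit for the difference recovered 67 of 100 genes set to differ 2-fold. It recovered 94 of 100 set to differ 4-fold, with 9 false calls among 18016 genes. The genes set to differ had a mean of at least 5 CPM, and no reads were shared among copies. These shares do not hold for genes with lower counts. In the real data, 1437 genes with an estimated difference of at least 2-fold were not called.

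The genes and lists were chosen with earlier results of these data known. Named genes were a panel, the largest differences per class among genes with a mean of at least 5 CPM, a sign kept in all 14 fits without 1 library and no pseudogene or clone name, up to 4 genes per list by p, and called genes within 10 Mb of Fshb. Amd2, Jmjd7, Gm28042, Pla2g4b, Strc, Psmb11, Stox2, Klhl42, Arntl, Vwf and the pseudogenes, clones and copies fall outside this rule and were chosen after their values were seen.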

Additional observations from a re-analysis of the deposited data

Results flagged for a closer look

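In groups of 4 libraries, 1 library stood far from the other 3 in 4 of 148 gene and group pairs (74 genes) by Dixon's test at its 95% critical value. Chance marks about 1 in 20 such groups. Rescue replicate 2 had 18.9 CPM of Lcn2, a secreted lipocalin, against 1.22 to 1.96 CPM in the other rescue libraries. The same library had 10.7 CPM of Pgr, the progesterone receptor, against 3.32 to 4.52 CPM, and 42.9 CPM of Stox2 against 44.5 to 44.7 CPM. Its oviduct epithelium list summed to 644 CPM against 36.0 to 38.1 CPM in the other rescue libraries. The part of such cells in these values was not tested. KO replicate 3 of experiment 2 had 47.2 CPM of Klhl42 against 50.4 to 51.0 CPM in the other KO libraries there.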

How the results depend on the processing

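No called difference changed sign in the 14 fits without 1 library, nor a called named one under the other settings that kept each gene apart. Of 159 named genes, 19 changed sign in at least 1 fit without 1 library, 0 of them called, Zp3, Gdf9, Pecam1, Ren1 and Svs5 included. Summing copies turned the sign of Kpna2 among others. DESeq2 gave 185 called differences, 90 under-restored, 8 over-restored and 86 rescue-only genes, and limma voom 19 rescue-only genes. Without a low-count filter, and with the Fshb(+/-) libraries added, 1 gene was over-restored. With each experiment fitted apart, 1834 WT effects were called, 1 gene was over-restored, 19 were rescue-only, 1167 restored and 644 unresolved. With the replicate block, 15 differences were called, 11 under-restored, 0 over-restored and 4 rescue-only. Same-numbered libraries correlated at -0.07 to 0.03 in experiment 1 and -0.29 to 0.17 in experiment 2. Libraries with other numbers correlated at -0.05 to 0.08 and -0.35 to 0.5. With so few libraries this cannot decide whether the numbers pair them. With copies summed, chosen after seeing the data, there were 12 called differences, 10 under-restored, 0 over-restored and 2 rescue-only genes. A margin of 1.5-fold left 973 restored genes, and 10 genes were called within 20 Mb of Fshb. The cause was not tested. Leaving out 1 library gave 21 to 45 called differences, 17 to 29 under-restored, 0 to 2 over-restored, 2 to 17 rescue-only, 1316 to 1815 restored and 1039 to 1968 unresolved genes, 2475 to 3590 WT effects and 3324 to 5160 rescue effects. In experiment 3, 16 to 18 under-restored genes had the sign of the WT effect. Of 177 named results, 151 kept their side of the threshold under the block and 161 with DESeq2. Genes under 1 CPM in a group rest on few counts.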
